A study of Mus musculus with 8 samples.

Results

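Klf2, Klf3, Foxo1, S1pr1, Rasgrp2, Trib2 and Emb were followed in single CD8+ T cells sorted from pancreatic tumours. These are 7 of the 32285 genes in the deposited matrices, and they were listed by name as a Klf2 circuit of quiescence and egress. They were chosen by earlier results of the same libraries, among them their fold changes in cells that carried a guide against Pik3cd and the level of Klf2 in anti-PD-1 and IgG. What is given for those comparisons therefore describes the genes and is no independent evidence for the choice. All 7 genes had UMIs (unique molecular identifiers, each standing for 1 captured transcript) in each of the 4 libraries.

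The cells were OT-I T cells, CD8+ cells with a transgenic receptor for an ovalbumin peptide, taken from Cas9 knock-in mice on the C57BL/6J background. They had been transduced with a lentiviral CRISPR library against metabolic genes, selected for the CD90.1 reporter of its vector and injected into mice that bore orthotopic KPC_OVA tumours, a mouse pancreatic ductal adenocarcinoma line that presents the ovalbumin peptide. Recipient mice were given anti-PD-1 or control IgG from the day of transfer, and CD90.1+ cells were sorted from the primary tumour 7 days later. Every group thus shared the transgenic receptor, Cas9, the CRISPR library and the tumour, and barcodes with no guide call were left out. The matrices come from CROP-seq, which reads the transcriptome and the guide of the same cell, and cover 3 anti-PD-1 libraries and 1 IgG library. The number of animals behind a library is not stated in the labels, so the spread between libraries may be partly technical.

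Klf2 and Klf3 are zinc finger transcription factors of the Krüppel-like family, and Foxo1 is a forkhead factor that is kept out of the nucleus when PI3K and Akt signal. In naive and memory T cells Foxo1 and Klf2 sustain S1pr1, the sphingosine-1-phosphate receptor by which lymphocytes leave tissues for blood and lymph, and strong antigen receptor signalling shuts this programme down. Rasgrp2 encodes CalDAG-GEFI, an exchange factor that activates Rap1 and through it integrins, Trib2 encodes a tribbles pseudokinase, and Emb encodes embigin, a membrane glycoprotein that escorts monocarboxylate transporters to the surface.

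After filtering, 23059 of 56359 cell barcodes remained, each with exactly 1 called guide, and 2685 of them carried a nontargeting guide. Of the 23059 cells, IgG held 11495, and replicates 1, 2 and 3 of anti-PD-1 held 2535, 2597 and 6432. Median UMIs per cell were 6329 for IgG and 16829, 16325 and 12084 for the anti-PD-1 replicates, so IgG was the shallowest library per cell. Pairs of libraries shared between 3 and 18 barcodes, at most 0.473% of the smaller library. The sample titles give anti-PD-1 replicates 1 and 2 the same name with a different suffix, whereas replicate 3 and IgG each have a name of their own, and replicate 3 is set apart in what follows. Lists of values give replicates 1, 2 and 3 of anti-PD-1 first and IgG last. T cell genes were high in every library, with Cd3e at 727 to 902 CPM (UMIs of the gene scaled to the same library total) and Cd8a at 643 to 908 CPM. Some of them also parted the libraries. Trac was at 1918, 1769, 798 and 700 CPM and Cd3g at 876, 906, 1389 and 1273 CPM. For both, replicate 3 stood nearer to IgG than to replicates 1 and 2. Of markers of other cells, the endothelial genes Cdh5, Kdr, Vwf, Cldn5 and Emcn, which would mark another cell type rich in Klf2, each lay under 1 CPM in every library, and the sixth on the list, Pecam1, which T cells also express, was at 6.25 to 9.28 CPM. Of the B cell genes, Igkc was at 127 CPM in replicate 3 and between 2.70 and 5.06 CPM in the other libraries, and Jchain at 11.7 CPM against 0.145 CPM or less. Ighm (47.05 to 62.5 CPM) and Cd79b (3.32 to 6.39 CPM) were not highest in replicate 3, and Cd79a and Ms4a1 lay under 1 CPM in every library.

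Pik3cd encodes the delta catalytic subunit of PI3K, which lymphocytes use, and the library held 1 guide against it, so that all sgPik3cd cells share a single spacer. It is shown because every comparison of sgPik3cd cells rests on it, written 5′ to 3′ as deposited.
Pik3cd guide: gttgtgtgttcaactaccgg
The 20 bases were looked for in the annotated transcripts of Pik3cd (chr4:149649168-149702571, minus strand, GRCm38) and no exact match was found, whereas 232 of the 245 guides whose target has annotated transcripts matched their own target. The site of this guide is therefore not given here.

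In GRCm38 the protein-coding genes lie on different chromosomes, except that Foxo1 and S1pr1 share chromosome 3, with Foxo1 at chr3:52268336-52353221, Klf2 at chr8:72319033-72321656, Klf3 at chr5:64803388-64832901, S1pr1 at chr3:115710433-115715072, Rasgrp2 at chr19:6399340-6415216, Trib2 at chr12:15791727-15816922 and Emb at chr13:117208536-117274415. S1pr1 and Trib2 are read from the minus strand.

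The promoters of the pair of Krüppel-like factors are shown because Klf3 was read at a higher level in cells with a Klf2 transcript than in cells without one in each library. The stretches are the parts of the RefSeq promoter windows that end just before the annotated gene (GRCm38.p6, both on the plus strand), and capitals mark GGGCGG and CACCC on either strand, CACCC reading GGGTG where it lies on the opposite strand.
Klf2 promoter, chr8:72318812-72319032: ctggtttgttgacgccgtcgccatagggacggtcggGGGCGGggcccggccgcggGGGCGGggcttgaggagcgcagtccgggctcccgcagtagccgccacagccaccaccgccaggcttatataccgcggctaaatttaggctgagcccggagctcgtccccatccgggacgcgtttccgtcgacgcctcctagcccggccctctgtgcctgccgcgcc
Klf3 promoter, chr5:64803271-64803387: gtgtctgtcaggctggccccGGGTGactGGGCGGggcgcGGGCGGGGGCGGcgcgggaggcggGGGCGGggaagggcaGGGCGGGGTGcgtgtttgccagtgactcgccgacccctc
The Klf2 stretch has 2 GGGCGG and 0 CACCC, and the Klf3 stretch 5 GGGCGG and 2 CACCC, of which 1 shares bases with a GGGCGG. Over whole windows of 300 bases, GGGCGG was found in 7 of 7 windows of the 6 members in the table, against 35.7% of 32851 promoter windows, and CACCC in 5 of 7 against 57.5%. The forkhead sequence GTAAACA was in 0 of 7 windows against 3.65%. The 7 windows had 57.7% to 80% G and C, against a median of 52.7% over all windows. Rasgrp2 has a pair of windows and S1pr1 is not in the table. Such matches describe the letters and not binding.

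The first comparison asks how the genes stood in tumours under anti-PD-1 and under IgG. The levels of Klf2, S1pr1, Klf3 and Rasgrp2 lay above IgG in each anti-PD-1 library, with the greatest distance in replicates 1 and 2 and a small distance in replicate 3. Foxo1 and Trib2 were nearly level, and Emb parted the anti-PD-1 libraries, with replicates 1 and 2 above IgG and replicate 3 below it.

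Klf2 was at 54.1, 53.8 and 23.4 CPM in replicates 1, 2 and 3 of anti-PD-1 and at 17.6 CPM in IgG. Replicates 1 and 2 thus lay at 3.08 and 3.06 times IgG and replicate 3 at 1.33 times, with a 95% counting interval of 1.25 to 1.43 for replicate 3. Klf3 was at 7.37, 7.76 and 5.62 CPM against 4.49 CPM in IgG. For both Krüppel-like factors replicate 3 stood nearer to IgG than to the other anti-PD-1 libraries. Foxo1 was at 35.4, 30.8 and 32.8 CPM against 30.7 CPM, so that its libraries hardly parted.

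The receptor S1pr1 was at 13.8, 10.4 and 8.38 CPM in replicates 1, 2 and 3 of anti-PD-1 and at 5.54 CPM in IgG. Replicate 3 was 1.51 times IgG (95% counting interval 1.34 to 1.70), the largest ratio of the 7 genes in that library. Rasgrp2 was at 31.9, 31.8 and 22.1 CPM against 19.5 CPM, and replicates 1 and 2 were almost equal. Trib2 was at 14.9, 12.04 and 14.0 CPM against 12.9 CPM, with replicate 2 under IgG. Emb was at 164, 138 and 75.3 CPM against 84.1 CPM, and its ratio of 0.896 in replicate 3 (0.866 to 0.927) lay under 1. In all, 5 of 7 genes were above IgG in each anti-PD-1 library, as were 22.5% of the 6975 genes of at least 10 CPM. Intervals here and below cover counting error only.

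**Figure D1:**
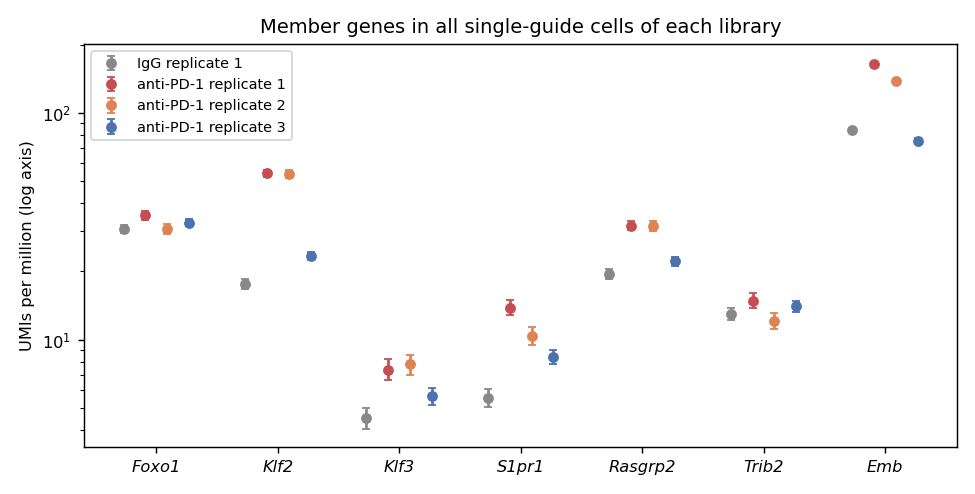
Level of each gene in CPM (log axis) over all single-guide cells of the 4 libraries, with 95% counting intervals as bars. Klf2 is at 54.1 and 53.8 CPM in anti-PD-1 replicates 1 and 2 and at 23.4 CPM in replicate 3, near the 17.6 CPM of IgG, whereas the Foxo1 points lie between 30.7 and 35.4 CPM.

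Counts summed per library were tested with edgeR's quasi-likelihood test, in which the spread of the single IgG library is taken to be that of the other 3. None of the 13810 genes tested was called at an adjusted p of 0.05, which is 0%, with 282 genes at an unadjusted p under 0.05 and 5 genes called by DESeq2. The log2 fold change of anti-PD-1 over IgG was 1.33 ± 0.53 (SE) for Klf2, which is given with no test because its level in these groups bore on the choice of genes. It was 0.98 ± 0.31 for S1pr1, 0.63 ± 0.25 for Klf3, 0.60 ± 0.43 for Emb and 0.56 ± 0.26 for Rasgrp2, each with an edgeR adjusted p of 0.99. Foxo1 and Trib2 were at 0.12 ± 0.13 and 0.09 ± 0.16, also at 0.99. Unadjusted p were under 0.05 for S1pr1 and Klf3 of these 6 genes.

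The count of genes called turned on replicate 3. Without it, 3316 of 13327 genes were called (24.9%; 12.4% higher in anti-PD-1), and S1pr1 (1.15 ± 0.12), Emb (0.86 ± 0.12), Klf3 (0.77 ± 0.13) and Rasgrp2 (0.72 ± 0.10) were among those higher. Klf2, again with no test, was at 1.64 ± 0.11. In that fit the spread is that of replicates 1 and 2 alone, which share a title name, and it is set against 1 IgG library, so treatment and that name cannot be told apart. With a term for the shared name, so that replicate 3 alone is set against IgG, 283 genes were called (2.05%; 1.14% higher), and S1pr1 was at 0.59 ± 0.14, Klf2 at 0.41 ± 0.12 and Emb at -0.16 ± 0.13. These are given as values alone, since that term leaves 1 library on each side of the contrast, whose error again comes from replicates 1 and 2.

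Cells with a nontargeting guide allow the same look without the knockouts. In these cells Klf2 was at 42.6, 38.7 and 17.8 CPM in replicates 1, 2 and 3 of anti-PD-1 and at 19.2 CPM in IgG, so that replicate 3 was at 0.927 of IgG (0.750 to 1.15). S1pr1 was at 11.5, 8.28 and 8.48 CPM against 5.05 CPM, and replicate 3 stayed at 1.68 times IgG (1.16 to 2.45). Emb in replicate 3 was at 0.750 of IgG (0.672 to 0.836). The sgPik3cd cells, which were high in Klf2, made up 3.26% of cells in replicate 3 and 2.05% in IgG, and gave 15.2% and 6.03% of all Klf2 UMIs there, against 1.93% and 1.31% in replicates 1 and 2. With the sgPik3cd cells left out and all others kept, a reading added after seeing the data, Klf2 in replicate 3 was at 1.21 times IgG (1.13 to 1.30). Klf2 in replicate 3 thus lay above IgG with and without sgPik3cd cells but not when nontargeting cells alone were read, and Rasgrp2 and Foxo1 turned under IgG in that reading too (0.911 and 0.944, both intervals including 1), whereas S1pr1 lay above it in all 3.

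None of the gene lists around the 7 genes held a gene called in the treatment fit. Medians of the log2 fold change were 0.06 for egress and homing receptors, 0.04 for the KLF family, -0.20 for FOXO family members and targets, 0.14 for quiescence genes, -0.02 for partners of the 7 genes, -0.01 for PI3K and Akt and 0.07 for antigen response genes, beside 0.01 for all genes tested. Without replicate 3, 4 of 9 egress and homing receptors tested were called higher and 2 lower, beside the 24.9% of all genes called in that fit. In the KLF family 3 of 8 were called higher and 0 lower (Klf4, Klf6 and Klf11), and of FOXO family members and targets 1 of 11 was higher and 5 were lower. Quiescence genes gave 6 higher and 5 lower of 12, antigen response genes 4 and 3 of 12, partners 3 and 1 of 13 and PI3K and Akt 2 and 0 of 9.

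The next question was in which cell states the genes were read. Cells were clustered with the 7 genes left out of the genes that drive the clustering, and 6 of the 7 (not Foxo1) would have been among those genes otherwise. Of the 7 clusters, the histone-led cluster 0 (7637 cells), cluster 1 led by Gzmc, Spp1 and Fcer1g (7477 cells) and cluster 6 led by Gm42418 and Lars2 (352 cells) took no name from the marker lists and remain unnamed. Cluster 2 (3272 cells) was Effector-like, led by Xcl1, Ifng and Crtam, and cluster 3 (2142 cells) Mitotic-like, led by Ccnb2 and Cdc20. Cluster 4 (1149 cells) was Precursor exhausted-like, led by Tcf7, Ccr7 and Dapl1. Cluster 5 (1030 cells) was Interferon-like, led by Isg15 and Ifit1, with the memory marker Ly6c2, the chemokine receptor Ccr2 and Tcf7 also among its 10 leading genes. Its mean log2 ratio to other cells was the highest of all clusters for interferon markers (3.11) and for memory markers (1.06). At resolution 0.5, 872 of its cells fell in 1 cluster and 153 in another. Which of these cells carried the interferon genes was not tested, so the name need not hold for most of them. Clusters were compared by description alone, since the same cells made them.

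Among the clusters with at least 20 cells in each library, which are all but cluster 6, cluster 5 held the highest mean level of 6 of the 7 genes. In each library 5 of the 7 (not Foxo1 and Trib2) were at least 1.5-fold higher in their highest cluster than in the other cells, as were 19% of the 6975 genes of at least 10 CPM in theirs. Klf2 stood there at 261, 271 and 196 CPM in replicates 1, 2 and 3 of anti-PD-1 and at 163 CPM in IgG, a mean of 8.07 times the other cells of the same library. S1pr1 was at 114, 79.1 and 69.9 CPM against 46.3 CPM in IgG, a mean of 10.6 times. Klf3 was at 46.2, 63.8 and 33.8 CPM against 36.9 CPM in IgG, a mean of 8.84 times. These 3 genes were highest in cluster 5 in each of the 4 libraries, and in cluster 5 the S1pr1 level of every anti-PD-1 library was above that of IgG. At resolution 0.2, where cluster 5 was merged with clusters 1 and 4, none of the 7 genes was at least 1.5-fold higher in each library.

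Rasgrp2 and Emb stood out less in cluster 5. Rasgrp2 was at 90.3, 106 and 65.1 CPM in replicates 1, 2 and 3 of anti-PD-1 and at 47.9 CPM in IgG, a mean of 3.08 times the other cells. Emb was at 570, 450 and 207 CPM against 199 CPM in IgG, a mean of 3.13 times, and in IgG its level in cluster 4 was almost the same, also at 199 CPM. Foxo1 was 1.66 times higher in cluster 5 and highest there in 3 of 4 libraries, whereas in replicate 3 it was at 48.4 CPM in cluster 4 against 40.9 CPM in cluster 5. Trib2 was the exception. By its mean it was highest in cluster 1, led by Gzmc and Spp1, at 18.5, 15.1 and 18.5 CPM with anti-PD-1 and 19.5 CPM in IgG, a mean of 1.53 times the other cells, and ranged from 7.85 to 28.1 CPM in cluster 5. Cluster 1 was its highest in 3 of 4 libraries, and in replicate 1 cluster 5 was, at 28.1 CPM. Without IgG or without replicate 1 another cluster had the highest mean, cluster 5 or 6, at a mean log2 ratio of 0.34 or 0.35 in place of 0.62, so that Trib2 had no settled highest cluster.

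Cells of cluster 5 had few UMIs, with a median of 0.596 of that of their own library, and made up 5.60%, 6.16% and 6.39% of cells with anti-PD-1 and 2.76% in IgG. The part of depth in these levels was not tested.

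The Mitotic-like cluster 3 came second in the mean over libraries for Klf2, Klf3, S1pr1 and Rasgrp2, although Klf3 was higher in cluster 4 than in cluster 3 in IgG (10.1 against 8.09 CPM) and in replicate 3 (10.9 against 9.82 CPM). Klf2 was at 117, 123 and 51.5 CPM there in replicates 1, 2 and 3 of anti-PD-1 and at 41.9 CPM in IgG. In the Precursor exhausted-like cluster 4, which is led by Tcf7 and Ccr7, Klf2 was at only 30.7, 27.5 and 21.2 CPM and at 24.6 CPM in IgG, under the Mitotic-like cluster in every library. Emb and Foxo1 instead had cluster 4 as their second, Emb at 315, 296 and 203 CPM and 199 CPM in IgG.

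Among the same clusters, the Effector-like cluster 2 had the lowest mean over libraries of Klf2, Klf3, Foxo1, S1pr1 and Rasgrp2. By single library this did not hold for Foxo1, which was lower in cluster 3 in replicates 2 and 3, or for Klf3, which was lower in clusters 0 and 1 in IgG. S1pr1 was at 2.99, 2.21 and 2.49 CPM there and at 1.81 CPM in IgG, and Rasgrp2 at 11.1, 10.8 and 10.5 CPM and 8.21 CPM. Klf2 was at 24.9, 20.8 and 6.45 CPM and at 9.17 CPM in IgG, with replicate 3 under IgG. In cluster 6 no Klf2 UMI was counted among the 177 IgG cells, which allows up to 5.89 CPM.

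**Figure D2:**
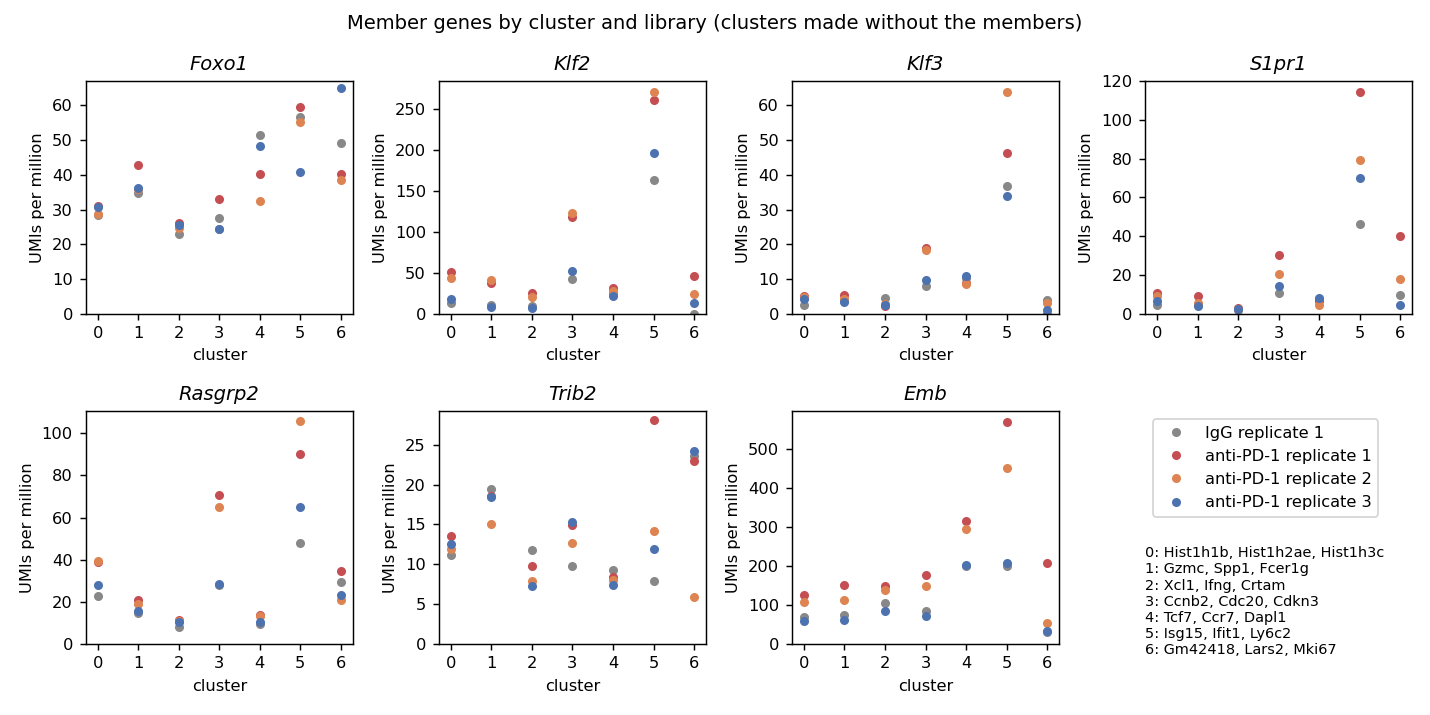
Level of each gene in CPM (linear axis from 0, 1 panel a gene) in clusters 0 to 6, 1 point a library, with the 3 leading genes of each cluster at the lower right. Klf2, Klf3, S1pr1 and Rasgrp2 peak in cluster 5 in all 4 libraries, with cluster 3 next on average, whereas Trib2 lies between 5.91 and 28.1 CPM with no such peak.

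Within clusters, replicate 3 and IgG could be compared state by state. In cluster 0 Klf2 was at 17.7 CPM in replicate 3, against 13.4 CPM in IgG, a ratio of 1.33 (1.17 to 1.498), and in cluster 1 at 8.20 and 9.97 CPM, a ratio of 0.822 (0.678 to 0.999). Over the 7 clusters the interval of the Klf2 ratio lay above 1 in 4 and below 1 in 2, so that Klf2 had no common direction. One of the 4 is cluster 6, where replicate 3 had 12 Klf2 UMIs and IgG 0. For S1pr1 it lay above 1 in 3 and below 1 in 0, and for Emb above 1 in 0 and below 1 in 4.

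Coexpression was then read within libraries, by splitting cells at 3000 UMIs each into those with and those without a Klf2 UMI. The gate held 313, 310 and 305 cells with Klf2 in replicates 1, 2 and 3 of anti-PD-1 and 378 in IgG. Cells with Klf2 had far more S1pr1, Klf3 and Rasgrp2, and more Emb, than cells without it, in every library, whereas Foxo1 and Trib2 differed little.

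S1pr1 was at 56.4, 48.4 and 95.1 CPM in cells with Klf2 of replicates 1, 2 and 3 of anti-PD-1 and at 46.7 CPM in IgG, against 12.5, 8.60, 5.97 and 4.60 CPM in cells without, a mean log2 ratio of 3.01 ± 0.82 (SD, n = 4). Klf3 was at 30.9, 36.6, 72.1 and 43.2 CPM in the same order, against 7.05, 6.70, 4.60 and 4.16 CPM, a log2 ratio of 2.99 ± 0.84. In nontargeting cells alone the mean log2 ratio of Klf3 was 2.10 and that of S1pr1 2.94. For both genes the ratio over all cells was highest in replicate 3, where sgPik3cd cells gave 15.2% of Klf2 UMIs, 9.64% of Klf3 UMIs and 7.14% of S1pr1 UMIs. Rasgrp2 was at 106, 120, 99.5 and 78.5 CPM against 29.1, 25.1, 19.4 and 16.6 CPM, a log2 ratio of 2.19 ± 0.22 with little spread. Emb was at 349, 291, 230 and 192 CPM against 176, 144, 74.4 and 84.0 CPM, a log2 ratio of 1.21 ± 0.29.

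Foxo1 had a log2 ratio of 0.28 ± 0.31, with replicate 1 at -0.03, and Trib2 of 0.48 ± 0.45, with replicate 2 at 1.15 and the other libraries between 0.20 and 0.37. In nontargeting cells alone the mean log2 ratio of Foxo1 turned negative. In all, 4 of the 6 genes were at least 1.5-fold higher in each library, beside 1.02% of the 6974 genes of at least 10 CPM (71 genes) and 0.445% that were lower. Klf3 and S1pr1 lie under 10 CPM by their mean over the 4 libraries and are not among those 6974 genes. Among them Rasgrp2 had the greatest lowest ratio of all, and Emb ranked 22.

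Leaving out cluster 5 kept the picture. Outside it the log2 ratio was 2.85 ± 0.72 for Klf3, 2.75 ± 0.60 for S1pr1, 2.23 ± 0.13 for Rasgrp2 and 0.86 ± 0.07 for Emb, beside 0.975% of genes that were at least 1.5-fold higher in each library. Emb lost most of the 4. Markers of other cells were read in the same gate. The 6 endothelial genes summed to 9.84 to 12.3 CPM in cells with Klf2 and 6.45 to 10.0 CPM in cells without, nearly all from Pecam1, which T cells also express, and the 7 B cell genes to 82.8 to 130 CPM and 58.2 to 122 CPM. Their part in the ratios was not tested.

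**Figure D3:**
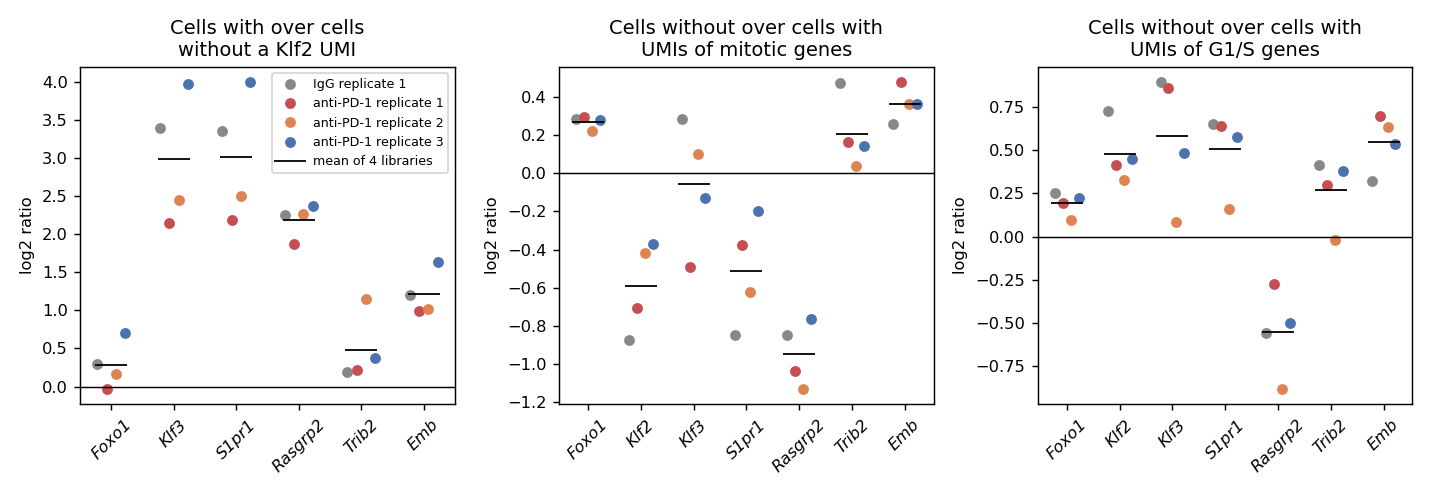
Log2 ratio of the level of each gene between cells with and without a Klf2 UMI (left), without and with UMIs of mitotic genes (middle) and without and with UMIs of G1/S genes (right), 1 point a library and a bar for their mean. In the left panel S1pr1, Klf3, Rasgrp2 and Emb lie at 0.99 or above in every library, and Rasgrp2 lies under 0 in every library of the other panels.

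Taken by pairs, 15 of the 21 pairs of the 7 genes had more cells with both transcripts than independence gives in each of the 4 libraries. Of all 23280076 pairs of the 6824 genes whose mean levels lay in the range of the 7 genes, 9.42% did so. Of the 21 pairs, 8 had a median Pearson r across cells of at least 0.1. The highest median r was 0.208 for Klf2 and S1pr1, which shared 44 cells in anti-PD-1 replicate 1 where 14.0 would be met by independence and 68 in replicate 3 against 7.87. Klf2 and Rasgrp2 followed at 0.191, then Klf2 and Emb at 0.167 and Klf2 and Klf3 at 0.166. The lowest was 0.0011 for Foxo1 and Rasgrp2. Cells of a library share free RNA and the same number of UMIs here, so the values are descriptions.

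The genes whose pattern was most like that of Klf2, by the lowest ratio over the 4 libraries, were Rasgrp2, Tcf7, Ripor2, Gm26740, Pik3r5, Cmah, 1700025G04Rik, Cdc25b, Gramd3, S1pr4, Rasa3, Gm2682, Cxcr3, E2f2 and Lef1. Tcf7, the transcription factor TCF1 of naive and stem-like T cells, was at a mean of 74.1 CPM in cells with Klf2 and 16.9 CPM in cells without, a log2 ratio of 2.11 ± 0.33. Lef1, its relative, was at 55.2 and 22.0 CPM, a log2 ratio of 1.34 ± 0.26. S1pr4, another sphingosine-1-phosphate receptor, was at 92.0 and 36.2 CPM, and Cxcr3, a chemokine receptor of effector and memory cells, at 114 and 48.5 CPM. At the other end stood granzymes of cytotoxic cells, Gzmf (6.98 CPM in cells with Klf2 and 74.7 CPM in cells without), Gzmd, Gzme and Gzmc, with Gm156, Fcer1g, Spp1, Xcl1, AA467197 and Eno3. Xcl1, a chemokine that draws dendritic cells, was at 744 CPM in cells with Klf2 and 2174 CPM in cells without.

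Of the pathway lists, egress and homing receptors had the highest median in cells with Klf2. In that list 4 of the 8 genes of at least 10 CPM were at least 1.5-fold higher in each library (S1pr4, Cxcr3, Cxcr4 and Itgb7), with a median log2 ratio of 1.05 beside 0.0044 for all genes. Il7r, the interleukin 7 receptor, was at 0.99 ± 0.48 and Ccr7, the receptor for entry to lymph nodes, at 0.04 ± 0.27. Cd69, whose protein removes S1PR1 from the surface, was at 0.57 ± 0.10, higher in cells with Klf2 in every library. In the KLF family 0 of 5 genes passed (median 0.30), with Klf6 at 0.62 ± 0.15, and among FOXO family members and targets 1 of 6 did (Tcf7; median 0.12). Quiescence genes gave 2 of 10 (Tsc22d3 and Lef1; median -0.04), partners 0 of 12 (0.02) and PI3K and Akt 0 of 9 (0.14). Of 12 antigen response genes, Il2ra and Ifng were at least 1.5-fold lower in each library and 0 were higher (median -0.42).

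The name of the set speaks of quiescence, and so the genes were read in cells without and with UMIs of mitotic genes. Cells without numbered 1043, 1097 and 2871 in replicates 1, 2 and 3 of anti-PD-1 and 4329 in IgG, and cells with at least 3 such UMIs 839, 847, 1832 and 3661. Klf2, S1pr1 and Rasgrp2 were lower, not higher, in cells without mitotic transcripts in each of the 4 libraries. For Klf2 and S1pr1 this held for mitotic genes and turned with genes of the G1/S transition. The split takes the cells of all clusters together. Cluster 5, where these genes were highest, had the lowest mean log2 ratio to other cells of all clusters for mitotic (-2.07) and G1/S genes (-1.43). The split therefore does not describe the cells in which these genes were highest.

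Rasgrp2 was at 21.1, 19.96 and 16.8 CPM in cells without mitotic UMIs of anti-PD-1 libraries and 13.8 CPM in those of IgG, against 43.3, 43.8, 28.6 and 24.8 CPM in cells with them, a log2 ratio of -0.95 ± 0.17. It alone of the 7 genes was at least 1.5-fold lower in each library, beside 6.89% of all genes, and 0 were higher, beside 0.949%. Klf2 was at 41.4, 46.6, 20.5 and 12.2 CPM against 67.5, 62.3, 26.4 and 22.4 CPM, a log2 ratio of -0.59 ± 0.24. S1pr1 had a log2 ratio of -0.51 ± 0.28 and Klf3 of -0.06 ± 0.33, with libraries on either side of 0. Foxo1 (0.27 ± 0.03), Trib2 (0.20 ± 0.19) and Emb (0.36 ± 0.09) were slightly higher in cells without mitotic UMIs in each library.

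With genes of the G1/S transition in place of mitotic genes, the order changed. Klf2 was at 68.6, 63.4, 29.7 and 23.7 CPM in cells without G1/S UMIs under anti-PD-1 and IgG, against 51.5, 50.6, 21.7 and 14.4 CPM in cells with them, a log2 ratio of 0.48 ± 0.17. Klf3 (0.58 ± 0.38), S1pr1 (0.51 ± 0.23) and Emb (0.55 ± 0.16) were likewise higher without them in each library, and Rasgrp2 was lower in each (-0.55 ± 0.25). So Klf2 and S1pr1 were low in cells with G1/S transcripts and high in cells with mitotic ones, as their second place in the Mitotic-like cluster shows, while Rasgrp2 was lower in cells without either. None of the 7 genes was 1.5-fold higher in each library by this split, beside 0.690% of all genes, and 0 were lower, beside 6.28%. Cells with mitotic UMIs were the deeper ones (median 8671 UMIs in IgG against 5642), and the part of depth was not tested.

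Of the listed quiescence genes, Satb1 and Bach2 were at least 1.5-fold higher in cells without mitotic UMIs in each library (2 of 10; median 0.49), as was Ccr7 of 8 egress and homing receptors (1.15 ± 0.32; median 0.03), Tcf7 of 6 FOXO family members and targets (0.98 ± 0.23; median 0.48) and Nr4a3 and Egr2 of 12 antigen response genes (median 0.50). The median of all genes was -0.0019. Lef1, high in cells with Klf2, was at -0.32 ± 0.22.

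The study perturbed PI3K itself in part of these cells, and results of the guide against Pik3cd were among those by which the 7 genes were chosen. The contrast of this guide with nontargeting guides in the anti-PD-1 libraries is accordingly given with no test. There were 25, 28 and 210 sgPik3cd cells in replicates 1, 2 and 3 of anti-PD-1 and 236 in IgG, so that replicate 3 carried most of those treated with anti-PD-1. Pik3cd transcripts had no common direction against nontargeting cells, at 62.3, 31.8 and 67.0 CPM in sgPik3cd cells of anti-PD-1 libraries and 58.5 CPM in those of IgG, against 51.2, 44.3, 58.3 and 60.2 CPM in nontargeting cells. A guide that cuts a gene need not lower its transcript, so this is no check of the knockout.

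Klf2 was at 127, 63.5 and 128 CPM in sgPik3cd cells of replicates 1, 2 and 3 of anti-PD-1 and at 57.8 CPM in IgG, against 42.6, 38.7, 17.8 and 19.2 CPM in nontargeting cells. The ratios were 2.98 (2.17 to 4.04), 1.64 (1.11 to 2.35) and 7.16 (5.95 to 8.63) with anti-PD-1 and 3.01 (2.30 to 3.91) in IgG. Klf2 was thus higher with the guide in each library, most so in replicate 3, where nontargeting cells had the least. Klf3 had ratios of 1.18, 2.42, 4.28 and 2.66 in the same order, of which the intervals in replicates 1 and 2 include 1. Foxo1, which PI3K acts on at the protein level, stayed near nontargeting cells in its transcript, with ratios of 1.31, 0.701, 1.01 and 0.882, all of whose intervals include 1.

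S1pr1 had ratios of 1.73, 1.13, 2.52 and 2.50 in replicates 1, 2 and 3 of anti-PD-1 and IgG, and its intervals lay above 1 in replicate 3 (1.76 to 3.59) and IgG (1.38 to 4.35). Rasgrp2 had ratios of 1.16, 1.80, 2.19 and 1.16, with the intervals in replicate 1 (0.605 to 2.03) and IgG (0.803 to 1.64) including 1. Trib2 had ratios of 2.45, 1.74, 2.97 and 2.59, of which the interval in replicate 2 includes 1 (0.866 to 3.18). Emb was at 254, 166, 187 and 172 CPM against 133, 121, 59.0 and 78.8 CPM, with ratios of 1.90, 1.37, 3.17 and 2.19, and like Klf2 its intervals lay above 1 in each library.

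**Figure D4:**
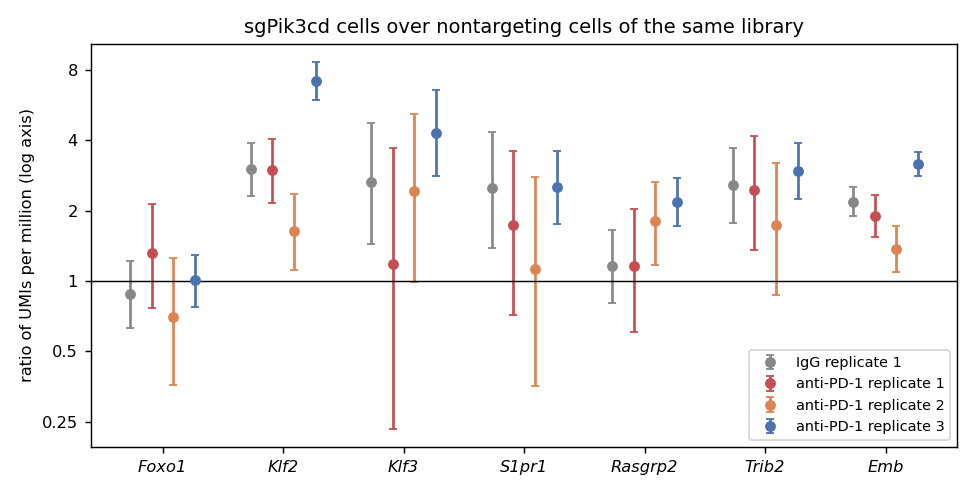
Ratio of the level of each gene in sgPik3cd cells to that in nontargeting cells of the same library (log axis), with 95% counting intervals as bars and the line at 1. Klf2 lies above 1 in all 4 libraries, from 1.64 in anti-PD-1 replicate 2 to 7.16 in replicate 3, and the Foxo1 intervals all include 1.

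Fitted over the 3 anti-PD-1 libraries with edgeR, the log2 fold change of sgPik3cd over nontargeting was 2.17 ± 0.34 (SE) for Klf2, 1.72 ± 0.36 for Klf3, 1.31 ± 0.21 for Trib2, 1.17 ± 0.33 for S1pr1, 1.16 ± 0.21 for Emb, 0.93 ± 0.27 for Rasgrp2 and -0.02 ± 0.20 for Foxo1. In this fit 0.637% of 9419 genes were called and 0.478% were called higher. Without replicate 3, which leaves 53 sgPik3cd cells, Klf2 was at 1.21 ± 0.45, Klf3 at 0.91 ± 0.67, S1pr1 at 0.54 ± 0.62, Emb at 0.73 ± 0.27, Trib2 at 1.08 ± 0.35 and Rasgrp2 at 0.64 ± 0.44. Each of these lay under its value in the fit with replicate 3. Klf2, over fits that left out 1 library at a time, was between 1.21 and 2.48. Among the 82 targets of the fit, sgPik3cd had the highest fold change of Klf2, Klf3, Trib2 and Emb, the second highest of S1pr1, the fifth of Rasgrp2 and rank 51 for Foxo1.

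Cluster 5 held 3, 3 and 26 of the sgPik3cd cells in replicates 1, 2 and 3 of anti-PD-1 and 15 in IgG, or 12%, 10.7%, 12.4% and 6.36% of them, against 4.98%, 2.69%, 6.46% and 1.90% of nontargeting cells, a difference that was not tested. Outside cluster 5 the Klf2 ratio was 2.80 (1.89 to 4.05), 1.52 (0.992 to 2.26) and 4.32 (3.38 to 5.51) with anti-PD-1 and 3.05 (2.27 to 4.08) in IgG. Klf2 was therefore higher with the guide among the other cells too, except that the interval in replicate 2 includes 1. S1pr1 differed in this, with ratios outside cluster 5 of 0.909, 0.594, 1.45 and 2.67, of which only that of IgG has an interval above 1 (1.45 to 4.75). Trib2 was at 2.48 (1.34 to 4.30), 1.07 (0.420 to 2.31), 3.08 (2.32 to 4.08) and 2.69 (1.84 to 3.87), so that replicate 2 lay near 1 there.

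The same contrast was fitted within the IgG library, where the 1 sgPik3cd guide was set against 34 nontargeting guides. These guides share mice and channel and are not replicates of a condition, the lone guide is taken to vary like the others, and the 7 genes were chosen with sgPik3cd results known, so their values are given with no test. Emb had a log2 fold change of 1.11 ± 0.24, Klf2 of 1.55 ± 0.43, Rasgrp2 of 0.21 ± 0.46 and Foxo1 of -0.20 ± 0.29. S1pr1, Klf3 and Trib2 had too few counts per guide to enter the fit. As a comparison of guides within 1 library, 6 of 5584 genes passed an edgeR adjusted p of 0.05 (0.107%; 0.0716% higher). Those that are none of the 7 genes were Icos (1.15 ± 0.23), a costimulatory receptor, Izumo1r (1.24 ± 0.22), Hif1a (0.84 ± 0.15), and, lower, Klrc2 (-1.47 ± 0.25) and AA467197 (-1.49 ± 0.32). AA467197 was also among the genes lower in cells with Klf2. That comparison includes the sgPik3cd cells, so the overlap is no independent evidence.

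No list had a gene called in the sgPik3cd contrast of the anti-PD-1 libraries. The median log2 fold change of egress and homing receptors was 0.30 in IgG and 0.32 in the anti-PD-1 libraries, that of quiescence genes 0.07 and 0.31, that of FOXO family members and targets 0.14 and 0.22, that of the KLF family -0.10 and -0.02, that of partners -0.05 and 0.0025, that of PI3K and Akt -0.10 and 0.11 and that of antigen response genes 0.17 and -0.11, beside -0.04 and 0.0030 for all genes.

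The same 7 genes were read in cells with guides against the other targets. None of the 567 pairs of 1 of these genes and 1 of 81 other targets was called in the anti-PD-1 libraries by edgeR, beside 0.053% of 762939 pairs over all genes (0.0409% higher). With no adjustment 66 of the 567 (11.6%) had a p under 0.05, beside 4.34% of all pairs. The pairs of a gene share the same nontargeting cells, so their directions move together. The median log2 fold change over the 81 targets was 0.32 for Klf2, 0.28 for Emb, 0.19 for Klf3, 0.16 for S1pr1, 0.10 for Rasgrp2, 0.02 for Foxo1 and -0.06 for Trib2, so that nontargeting cells were lower in Klf2 and Emb than most targets.

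For Klf2 the smallest p of another target was that of Man1a2, a Golgi mannosidase, at 1.39 ± 0.41 (edgeR adjusted p = 0.61). With no filter on low counts, the pairs called included Klf2 with guides against Man1a2 (1.34 ± 0.26), B3gnt2 (1.13 ± 0.23) and Kmt2b (0.93 ± 0.23), each higher. Pigm, at 2.15 ± 1.05 for Klf2, lay next to sgPik3cd but rests on 15 cells of 1 library. Ranked within libraries over 71 targets, sgPik3cd had the highest Klf2 level in IgG and in anti-PD-1 replicate 3, the second in replicate 1 and rank 24 in replicate 2.

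**Figure D5:**
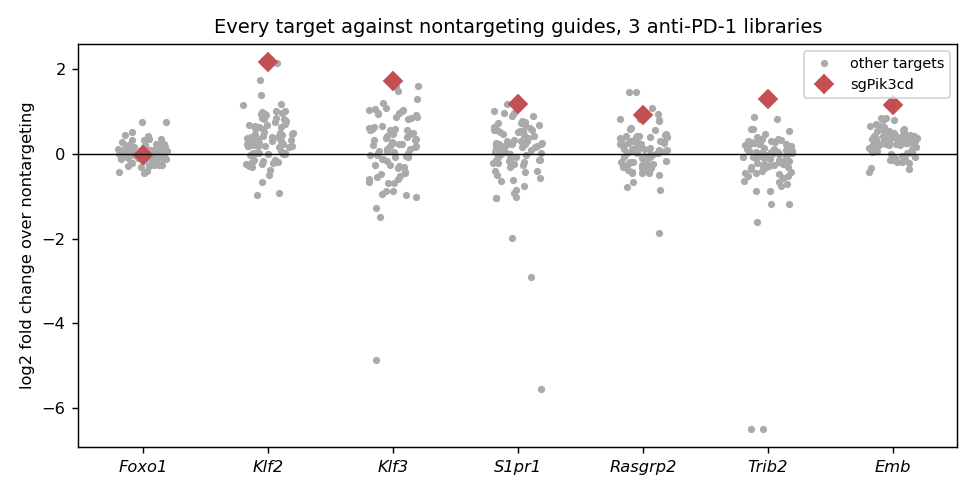
Log2 fold change of each gene over nontargeting guides in the 3 anti-PD-1 libraries, 1 point for each of 81 other targets and a diamond for sgPik3cd. The diamond is the highest point for Klf2 (2.17), Klf3 (1.72), Trib2 (1.31) and Emb (1.16) and lies at -0.02 among the others for Foxo1, and the 4 points under -4 belong to targets with 11 to 19 cells of 1 library.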

How the data were processed

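The deposited matrices, 1 a library, hold raw UMI counts for genes and guides in every cell barcode, which the authors obtained from Cell Ranger 3.1.0 on mm10, and were used together with the deposited guide calls. Which annotation release was counted is not given in the sources; positions come from GENCODE for GRCm38, the same build. Gene expression and guides were read in 4 libraries, 10x Genomics 3′ chemistry, which the labels describe as 8 samples. The library total over all barcodes was 142945121 gene UMIs for IgG and 147911528, 148163269 and 155974184 for replicates 1, 2 and 3 of anti-PD-1, and precision is given by exact 95% counting intervals.

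Barcodes with 1 called guide were kept if their log10 UMIs lay no more than 3 median absolute deviations from the median of their library, with at most 10% mitochondrial UMIs. No doublet caller was run, since barcodes with several guides were left out. Levels (CPM) are UMIs of a gene over summed cells, scaled to a common total of gene UMIs. They do not compare genes with each other, since 3′ counts were not read per length.

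Clusters were made in Seurat 5.3.0 from 2000 variable genes, with libraries integrated by canonical correlation (30 components), 15 components and resolution 0.3. The 7 genes, the guide targets, mitochondrial genes, variable segments of T cell receptors and sex-linked genes were kept out of the variable genes. UMI count, mitochondrial share and the difference between the G1/S and mitotic scores were regressed out, but not the scores themselves. A marker list gave its name to a cluster whose leading gene it contained, if no other list had as many markers among the 10 leading genes and 3 or more of its genes were found; this rule was settled after clusters had been seen. For gates, each cell was thinned to 3000 UMIs, so that shallower cells were dropped, 611 in IgG and 36 in anti-PD-1 replicate 3. Then cells with at least 3 and with 0 mitotic UMIs were compared on their whole counts. Coexpression used thinned counts throughout. Genes named as like Klf2 were the 15 with the highest and the 10 with the lowest ratio, taken in the library nearest to 0, among genes of at least 10 CPM; targets were named where a gene of the set was called. The CACCC and GTAAACA motifs, and GGGCGG, which was added after the windows had been viewed, were searched on both strands.

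Sums were tested with edgeR 4.0.16 (filterByExpr, TMM, quasi-likelihood, Benjamini-Hochberg over all genes of a contrast, threshold 0.05), per library for treatment, per target within each anti-PD-1 library (10 cells or more, library as a block) for knockouts, and per guide in IgG. In the knockout fit the null models were refitted by a Newton method that gave the likelihood ratios of the tool. Counts were simulated with 100 genes changed by each fold and a spread fixed beforehand, each changed gene moving alike in all sums of its group. On these the treatment fit recovered 81% of 2-fold and 93% of 4-fold changes, the knockout fit 48% and 93% and the IgG guide fit 28% and 90%. These shares are not the power of the fits on the real libraries, where replicate 3 stood apart from replicates 1 and 2. The design had foreseen 3 Pik3cd guides, but the library holds 1. DESeq2 1.42.0 served as an alternative. The 7 genes and all lists were chosen with earlier results of these data known. Other tools were R 4.3.3, Python 3.11.15, matplotlib 3.10.9, pandas 2.3.3, scipy 1.17.1 and numpy 2.4.6. The results of 1 guide target and 1 marker gene are not reported here.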

Additional observations from a re-analysis of the deposited data

How the results depend on the processing

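The number of genes called for treatment, 0, became 5 with DESeq2 and 283 with a term for the title name shared by anti-PD-1 replicates 1 and 2, and lay between 0 and 3316 when 1 anti-PD-1 library was left out, the 3316 being without replicate 3. It stayed at 0 with no filter on low counts, without cells of other types and in nontargeting cells. S1pr1, Emb, Klf3 and Rasgrp2 crossed the threshold without replicate 3, where the spread comes from replicates 1 and 2 alone. Klf2, and the 7 genes with the title term, are given with no test. Fold changes that turned were Emb to -0.16 with the title term and Foxo1 to -0.016 in nontargeting cells. For sgPik3cd in IgG, 6 genes became 3 with DESeq2, 18 with no filter and 11 with the guides of all targets in the fit. Calls of the 7 genes in other targets went from 0 to 7 of 567 with no filter, where 0.0586% of 1596460 pairs over all targets and genes were called, and stayed at 0 in the other alternatives run. The Foxo1 change in sgPik3cd cells lay between -0.14 and 0.10 when 1 library was left out.

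Of the 7 genes, 5 were at least 1.5-fold higher in their highest cluster in each library, beside 19% of the 6975 genes of at least 10 CPM. The count of 5 became 0 at resolution 0.2, where cluster 5 was merged with cluster 1 and cluster 4, and 5 to 6 with 1 library left out. By mitotic UMIs 1 gene passed, which became 0 with the G1/S list, where Klf2, Klf3 and S1pr1 turned to 0.48, 0.58 and 0.51. Klf3 also turned to 0.25 in cells not thinned and lay between -0.17 and 0.085 with 1 library left out. Foxo1 by Klf2 turned to -0.66 in nontargeting cells. In those cells, an alternative added after seeing the data, the log2 ratio of replicate 3 to IgG turned to -0.11 for Klf2, -0.084 for Foxo1 and -0.13 for Rasgrp2. The cause of these changes was not tested, other than the fewer genes or samples that an alternative leaves.

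The 7 genes carry no test in the sgPik3cd fits. The other alternatives run turned no value. DESeq2 for the knockouts and fits without single Pik3cd guides were not run, the latter because there is 1 guide. No paired analysis was possible because IgG has 1 library and the groups share only replicate number 1. Depth limits S1pr1, Klf3 and Trib2 most, which lie near 10 CPM or below.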
